A study of Mus musculus with 16 samples.

Results

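Gene expression in the cerebellum was compared across all genes between mice that carry the Slc39a8 allele A391T and wild-type mice. The comparison used the 4 libraries titled A391T cerebellum and the 4 titled wild-type cerebellum, which are 8 of the 16 libraries of the series, and the genotypes were those in the names of the count files. All mice were C57BL/6J. The A391T animals carried the alanine-to-threonine missense allele, which the labels also give as A393T, the position of the same residue in the mouse protein, and the controls carried the wild-type allele. The wild-type animals of the methods were male littermates of 12 weeks that were not perfused, and the labels give neither age nor sex for any group. Each library was made from the polyA-selected RNA of 1 mouse, and the labels name it by region and mouse: CBLM445, CBLM446, CBLM461 and CBLM462 for A391T and CBLM447, CBLM448, CBLM479 and CBLM480 for wild type. Values per library are given in this order throughout, first for A391T and then for wild type. The other 8 libraries, with names in CTX and the same mouse numbers, were of the cortex of the same 8 mice. A table of normalised values deposited beside the count files gives 4 of the mice, those of CBLM461, CBLM462, CBLM447 and CBLM448, the opposite genotype, and the files do not settle which names are right. The main results are therefore followed by their values under the names of that table, in which the A391T group holds CBLM445, CBLM446, CBLM447 and CBLM448.

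Slc39a8 encodes ZIP8, a membrane importer of divalent metals such as manganese, zinc and iron. The human form of this allele is common, lowers blood manganese and is associated with schizophrenia and other traits. Manganese is a cofactor of many glycosyltransferases of the Golgi, so that glycosylation genes and metal transporters were of interest beside the genes of the cell types of the cerebellum. The tissue consists mostly of granule neurons, with Purkinje cells, interneurons, Bergmann glia and myelinating oligodendrocytes, and the choroid plexus of the fourth ventricle lies against it.

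Slc39a8 (ENSMUSG00000053897) lies on the plus strand of chromosome 3, at chr3:135488243-135551536 of mm9. Codon 393 of its protein is GCT, an alanine codon, and lies in exon 8 of 9 of 2 annotated transcripts and in exon 7 of 8 of another, at chr3:135547688-135547690. The reference sequence around it is shown because it holds the residue that separates the groups, with the codon in capitals, read on the plus strand at chr3:135547643-135547735.
Slc39a8: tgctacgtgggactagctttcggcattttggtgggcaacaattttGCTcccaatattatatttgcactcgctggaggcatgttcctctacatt

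Slc39a8 itself was at a low level of like size in both genotypes. Its normalised CPM, the counts scaled to the size of the library, were 6.36, 5.58, 5.05 and 4.92 in A391T, and 6.49, 5.80, 5.22 and 4.91 in wild type. The groups overlapped over nearly their whole range. The means were 5.48 ± 0.653 CPM and 5.61 ± 0.695 CPM (SD, n = 4 each), and the log2 fold change of A391T against wild type was -0.03 (SE 0.13, adjusted p = 0.925 in edgeR's quasi-likelihood test, which gave all p-values below unless another test is named). Per length, the level was 2.58 ± 0.189 TPM, which also takes gene length into account, in A391T and 2.75 ± 0.302 TPM in wild type. Since the allele is a missense change and the files give no reads, its level checks no label. Under the names of the table the log2 fold change was 0.27 with an unadjusted p of 0.0256, and all 4 libraries then named A391T were above all 4 then named wild type. In cortex it was 0.47 under those names (unadjusted p = 0.00367).

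The 8 libraries held from 23189700 to 27678440 counts on genes, and 15668 of the 37583 genes in the files passed the filter on low counts. The defining markers of the cerebellum were present in every library. The granule cell list summed to 5913 to 6880 CPM in A391T and 6452 to 7013 CPM in wild type, and the Purkinje cell list to 11322 to 13299 CPM and 11712 to 12937 CPM. The A391T library CBLM445 stood apart from the other 7. It differed over 2-fold from the mean of the others in 236 of 9107 well-measured genes, where each other library did so in 4 to 14, and its shorter genes were shifted upward, by a median of 0.0965 on the log2 scale in the shortest sixth and by -0.158 in the longest. Nrgn, a marker of forebrain neurons, was at 94.6 CPM in CBLM461 and 85.7 CPM in CBLM479, and from 4.58 to 7.62 CPM in the other 6. Lhx9, a transcription factor of the midbrain and thalamus, was at 11.3 and 9.58 CPM in the same 2 libraries and at most 1.23 CPM elsewhere. Nrgn and Lhx9 were chosen after their values were seen. The forebrain neuron list, which does not hold Nrgn, did not stand out in these 2 libraries. Its summed CPM was 6.75 in CBLM461 and 8.31 in CBLM479, and from 6.40 to 9.33 in the other 6. Choroid plexus RNA also differed between libraries and is described further on.

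No gene passed an adjusted p under 0.05 in edgeR's quasi-likelihood test, so the share called was 0% of 15668. At an unadjusted p under 0.05 there were 1340 genes (8.55% of those tested), of which 767 were higher in A391T (4.9%) and 573 lower (3.66%). The smallest adjusted p was 0.18. edgeR's exact test called 17 of the 15668 genes (0.109%), and DESeq2 called 30 of the 13839 genes to which it gave an adjusted p (0.217%). The median size of the difference over all genes was 0.126 on the log2 scale, and 38 genes (0.243%) differed by 2-fold or more. The median standard error was 0.12, so that a typical gene would have had to differ by several times that value to pass. All 4 A391T libraries lay above all 4 wild-type libraries in 745 genes (4.75%) and below them in 444 (2.83%). In a bulk library, fewer cells of a type and less RNA per cell cannot be told apart, and this holds for every gene below.

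The 12 genes with the smallest p on the higher side included transcription factors that cells switch on shortly after stimulation, such as Nr4a2, Nr4a3 and Fosl2, the feedback inhibitor Spry4 and the neurotrophin Bdnf. None of the 12 passed after adjustment. Each of the 12 was higher in all 4 A391T than in all 4 wild-type libraries, which a small p favours, and their median log2 fold change was 0.759.

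Spry4 (ENSMUSG00000024427), an inhibitor of receptor tyrosine kinase signalling that is itself induced by that signalling, had the smallest p of all genes. Its CPM was 31.5, 28.2, 32.7 and 22.1 in A391T and 14.7, 14.8, 12.7 and 12.2 in wild type. No library of either group reached the range of the other. The log2 fold change was 1.08 (SE 0.13, unadjusted p = 1.15e-05, adjusted p = 0.18).

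Nr4a2 and Nr4a3, orphan nuclear receptors of the immediate early class, were likewise separated between the groups. Nr4a2 was at 33.8, 35.5, 35.4 and 36.8 CPM in the A391T libraries and at 15.8, 15.6, 11.6 and 22.0 CPM in the wild-type libraries, in the order of mice given for Spry4. The A391T values lay within a narrow band and CBLM480 was the highest of the other group. Its log2 fold change was 1.12 (SE 0.16, adjusted p = 0.308). Nr4a3 was at 38.8, 36.1, 33.7 and 23.0 CPM against 17.1, 12.9, 7.48 and 7.26 CPM, with a log2 fold change of 1.56 (SE 0.28, adjusted p = 0.516). Per length, both were modest, at 27.1 ± 2.20 TPM against 12.9 ± 3.51 TPM for Nr4a2 and at 18.4 ± 3.44 TPM against 6.48 ± 2.65 TPM for Nr4a3 (SD, n = 4 each).

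The promoters of Nr4a2 and Nr4a3 are shown because both genes were higher in the same libraries and both belong to the genes that the factor CREB is known to switch on. CREB binds the half-site TGACG, which reads CGTCA on the other strand, and these letters are in capitals. The sequences are those of RefSeq for GRCm38.p6, from 250 bases before to 50 after the start of the gene, 5′ to 3′ on the strand of the gene. They lie at chr2:57123954-57124253 on the minus strand for Nr4a2 and at chr4:48045055-48045354 on the plus strand for Nr4a3.
Nr4a2: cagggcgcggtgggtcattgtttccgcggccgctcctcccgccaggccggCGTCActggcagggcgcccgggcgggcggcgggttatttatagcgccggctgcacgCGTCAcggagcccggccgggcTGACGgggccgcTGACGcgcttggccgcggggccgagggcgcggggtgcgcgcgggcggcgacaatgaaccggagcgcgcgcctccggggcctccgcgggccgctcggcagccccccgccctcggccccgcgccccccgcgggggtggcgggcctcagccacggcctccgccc
Nr4a3: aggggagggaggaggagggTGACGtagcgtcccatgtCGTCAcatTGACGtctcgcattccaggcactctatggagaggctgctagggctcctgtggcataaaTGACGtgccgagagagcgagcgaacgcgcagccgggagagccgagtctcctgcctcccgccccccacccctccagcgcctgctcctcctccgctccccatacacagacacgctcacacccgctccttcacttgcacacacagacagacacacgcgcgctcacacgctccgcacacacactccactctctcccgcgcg

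Each of these 2 promoters held 4 half-sites. A half-site on either strand was found in 20.8% of the 32851 promoters of the same length in the table. Of the 24 genes with the smallest p, 15 had a promoter there, 7 on the higher and 8 on the lower side, some with several promoters. Counted per promoter as in that share, 5 of 13 on the higher side and 4 of 12 on the lower side held at least 1 half-site. A match of 5 letters is a description of the sequence and was not tested as a binding site.

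Fosl2, a subunit of the AP-1 transcription factor, was at 15.4, 13.5, 13.6 and 14.2 CPM in A391T against 8.59, 7.41, 9.66 and 9.25 CPM in wild type. The log2 fold change was 0.70 (SE 0.10, adjusted p = 0.308), and the groups were well apart. Klf2, a transcription factor known from the endothelium, was at 28.3, 20.1, 20.3 and 19.6 CPM against 12.0, 12.3, 7.28 and 11.3 CPM (log2 fold change 1.04, SE 0.18, adjusted p = 0.516). CBLM445 was the highest of its group. Bdnf, the neurotrophin whose transcription follows neuronal activity, was at 21.6, 18.1, 20.2 and 18.4 CPM against 14.4, 14.8, 13.6 and 11.4 CPM, a log2 fold change of 0.53 (SE 0.10, adjusted p = 0.532). Here the highest wild-type value lay well below the lowest A391T value. Apold1, an early response gene of endothelial cells, was at 9.15, 4.24, 7.77 and 6.79 CPM against 2.10, 2.74, 2.93 and 4.21 CPM, and its groups came close to touching, at CBLM446 and CBLM480 (log2 fold change 1.22, SE 0.26, adjusted p = 0.532). The other 5 on the higher side were Bcl6b, a transcriptional repressor (0.82), Trib1, a pseudokinase of the Tribbles family (0.56), Siah2, a ubiquitin ligase (0.39), Clk1, a kinase of splicing factors (0.33), and Hsd11b1, the enzyme that regenerates active glucocorticoid (0.29), with the log2 fold change in brackets.

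**Figure D1:**
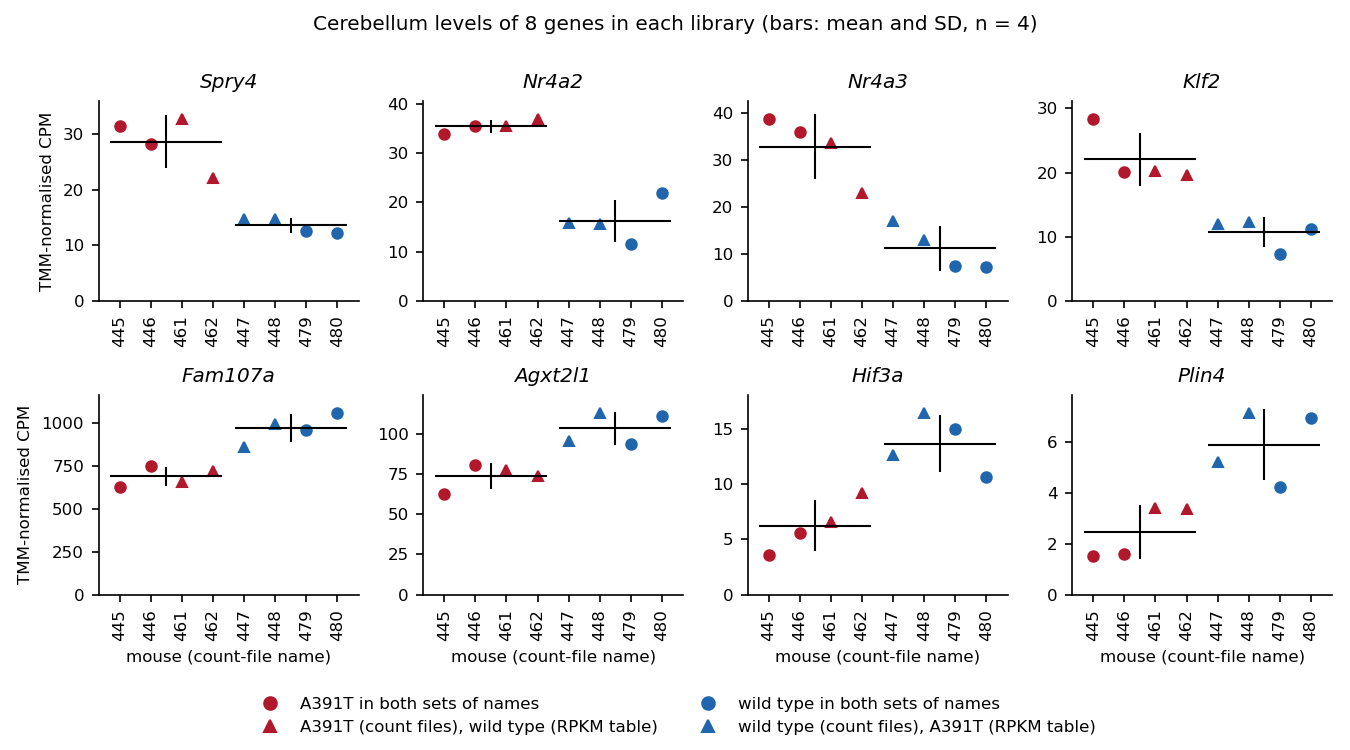
Normalised CPM of Spry4, Nr4a2, Nr4a3, Klf2, Fam107a, Agxt2l1, Hif3a and Plin4 in each cerebellum library, with 1 panel per gene, axes from 0, the mice on the horizontal axis (A391T red, wild type blue by the count files), triangles for mice with the opposite genotype in the normalised table, and bars for the mean and SD of each group of 4. The Spry4 points of A391T lie between 22.1 and 32.7 CPM, above those of wild type at 12.2 to 14.8 CPM, and the triangles of both colours lie with their own group.

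The genes with the smallest p on the lower side were of several kinds. None of the 12 passed after adjustment, all 12 were lower in every A391T than in every wild-type library, and their median log2 fold change was -0.637.

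Fam107a, an actin-binding protein of astrocytes and neurons that is induced by stress hormones, was at 627, 750.1, 655 and 718 CPM in A391T and at 859.7, 989.5, 959 and 1057 CPM in wild type. It was by far the most abundant of the 12, at 489 ± 58.6 TPM against 713 ± 68 TPM (SD, n = 4 each). The log2 fold change was -0.49 (SE 0.08, unadjusted p = 0.000195, adjusted p = 0.516). Agxt2l1, an astrocytic enzyme that breaks down phosphoethanolamine, was at 62.8, 81.0, 77.7 and 74.2 CPM against 95.9, 114, 94.1 and 112 CPM, a log2 fold change of -0.49 (SE 0.10, adjusted p = 0.532). Agxt2l1 lies within 20 Mb of Slc39a8. Folh1, the astrocytic peptidase that cleaves N-acetylaspartylglutamate, was at 6.77, 6.30, 6.79 and 6.18 CPM against 8.79, 8.82, 8.27 and 9.82 CPM (log2 fold change -0.45, adjusted p = 0.532).

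Hif3a, a subunit of the hypoxia-inducible factors, was at 3.61, 5.54, 6.58 and 9.19 CPM in A391T and at 12.6, 16.4, 15.0 and 10.6 CPM in wild type. The log2 fold change was -1.14 (SE 0.25, adjusted p = 0.532), with CBLM462 and CBLM480 nearest to each other. Vwf, the clotting factor made by endothelium, was at 22.5, 19.7, 23.0 and 28.6 CPM against 29.0, 36.2, 36.9 and 37.8 CPM (log2 fold change -0.58, SE 0.13, adjusted p = 0.532). Its groups were separated by less than 1 CPM. None of Fam107a, Agxt2l1, Folh1 and Vwf is on the marker lists of astrocytes and of endothelial cells. The medians of those 2 lists were 0.151 and 0.0149. They were 0.062 and -0.0308 without CBLM445, and 0.0494 and -0.131 under the names of the table. Whether the share of these cells differed was not tested. Gabrr2, a rho subunit of GABA receptors, was at 0.632, 0.566, 0.849 and 0.653 CPM against 1.36, 1.65, 1.43 and 1.16 CPM, a log2 fold change of -1.05 (SE 0.20, adjusted p = 0.532) at a low level. The other 6 had log2 fold changes from -1.18 to -0.27. They were G530011O06Rik (-1.18), Gm14168 (-0.74), Aass, an enzyme of lysine breakdown (-0.72), Myof, a membrane-repair protein (-0.70), Sfswap, a splicing regulator (-0.29), and Lrrc16b, a regulator of actin capping (-0.27). G530011O06Rik shares 40% of its exon bases with Mid1 on the other strand, and without strand in the counting reads of both genes cannot be told apart.

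The other tests called many of these genes. Of the 24, edgeR's exact test called 8 on the higher and 9 on the lower side, which were all 17 of its calls, and DESeq2 called 12 and 11 of its 30.

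Under the names of the table none of the 24 genes kept its separation. None could, since groups that lie fully apart must overlap once each holds libraries of both. No gene passed in the quasi-likelihood test (0% of 15668), 1226 had an unadjusted p under 0.05 (7.82%), of which 442 were higher (2.82%) and 784 lower (5%), and the smallest adjusted p was 0.549. Over all genes 494 were higher in every A391T library (3.15%) and 526 lower (3.36%), which the 24 could not be. None of the 24 had an unadjusted p under 0.05. The smallest among them was 0.255. The median log2 fold change of the 12 genes on the higher side went from 0.759 to 0.132 and that of the 12 on the lower side from -0.637 to -0.0947. That of Spry4 was 0.16, that of Nr4a2 -0.07, that of Fosl2 -0.05 and that of Fam107a -0.07. The 24 were chosen by their p under the names of the count files, so a loss under any exchange of libraries is built into the choice. The genes with the smallest p under the names of the table were others, named here after their values were seen. Slc15a2, a peptide transporter of the choroid plexus and astrocytes, was at 47.5, 53.2, 22.7 and 18.9 CPM in the libraries that the count files name A391T and at 74.1, 66.4, 26.0 and 8.71 CPM in those they name wild type. CBLM445, CBLM446, CBLM447 and CBLM448 were thus high and the other 4 low, which gave 1.66 on the log2 scale with an unadjusted p of 0.000174. Alox5 (-1.28), Map3k15 (1.42) and Kcnj2 (-0.9997) followed, with unadjusted p from 0.000235 to 0.000477.

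In the cortex of the same 8 mice, under the names of the count files, the 24 genes mostly lay on the same side. The differences were smaller, except that of Agxt2l1. Of the 12 genes higher in cerebellum 11 had a cortical log2 fold change above 0, 8 of them with an unadjusted p under 0.05, and all 12 lower ones had one below 0, 4 with an unadjusted p under 0.05. In cortex 748 of 15815 genes (4.73%) had such a p in either direction. The medians were 0.339 and -0.363. The 2 regions share their mice and any exchange of names, so the cortex is no independent group. Spry4 had a cortical log2 fold change of 0.44 (unadjusted p = 0.00216), Nr4a3 of 0.49 (0.00634), Fam107a of -0.36 (0.00236) and Agxt2l1 of -0.82 (2.68e-05). Bdnf was the exception on the higher side, at -0.14. Under the names of the table the cortical values were 0.10 for Spry4, 0.27 for Nr4a3 and -0.21 for Bdnf. Those of Fam107a and Agxt2l1 were -0.20 and -0.13. The cortical values of Klf2 (0.56 to -0.40) and Apold1 (0.59 to -0.71) changed sign, while that of G530011O06Rik went from -0.71 to -0.97.

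Whether the difference in cerebellum differed from that in cortex was tested with the interaction of genotype and region over all 16 libraries. No gene of 16589 passed (0%), and 805 had an unadjusted p under 0.05 (4.85%). With each mouse as a block the count was also 0. The interaction had an unadjusted p under 0.05 for 5 of the 12 higher and 3 of the 12 lower genes, and for 7 and 5 with the mouse as a block, which added Bcl6b (0.0327), Apold1 (0.0385), Agxt2l1 (0.0332) and Hif3a (0.0196). For Bdnf it was 0.66 on the log2 scale (cerebellum minus cortex, unadjusted p = 0.000251), for Nr4a2 0.96 (0.00343), for Nr4a3 1.05 (0.00581), for Spry4 0.63 (0.00312) and for Fosl2 0.57 (0.000378). These genes were chosen by their cerebellar values, which form 1 side of that difference.

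The cortex had 2 genes past the adjusted threshold (0.0126%). Plin4, a coat protein of lipid droplets, was at 1.73, 1.80, 2.08 and 1.59 CPM in A391T cortex and at 3.67, 8.18, 6.14 and 6.21 CPM in wild-type cortex. In cerebellum it was at 1.52, 1.58, 3.40 and 3.35 CPM against 5.22, 7.13, 4.24 and 6.93 CPM, and every A391T value lay below every wild-type value there too. Its log2 fold change was -1.76 in cortex (adjusted p = 0.0496) and -1.26 in cerebellum (SE 0.30, adjusted p = 0.532), and under the names of the table -0.22 in cerebellum and 0.00039 in cortex (unadjusted p = 0.999). Klf10, an early growth-response factor named because it was the other gene called in cortex, lay on different sides in the 2 regions, at 0.74 in cortex (adjusted p = 0.0496) and -0.23 in cerebellum (unadjusted p = 0.115), and under the names of the table it was at 0.04 in cortex (unadjusted p = 0.883). No gene was called in cortex under those names, nor without CTX445, CTX446, CTX461, CTX462 or CTX448. The interaction was -0.98 (unadjusted p = 2.21e-05), and it did not pass after adjustment.

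**Figure D2:**
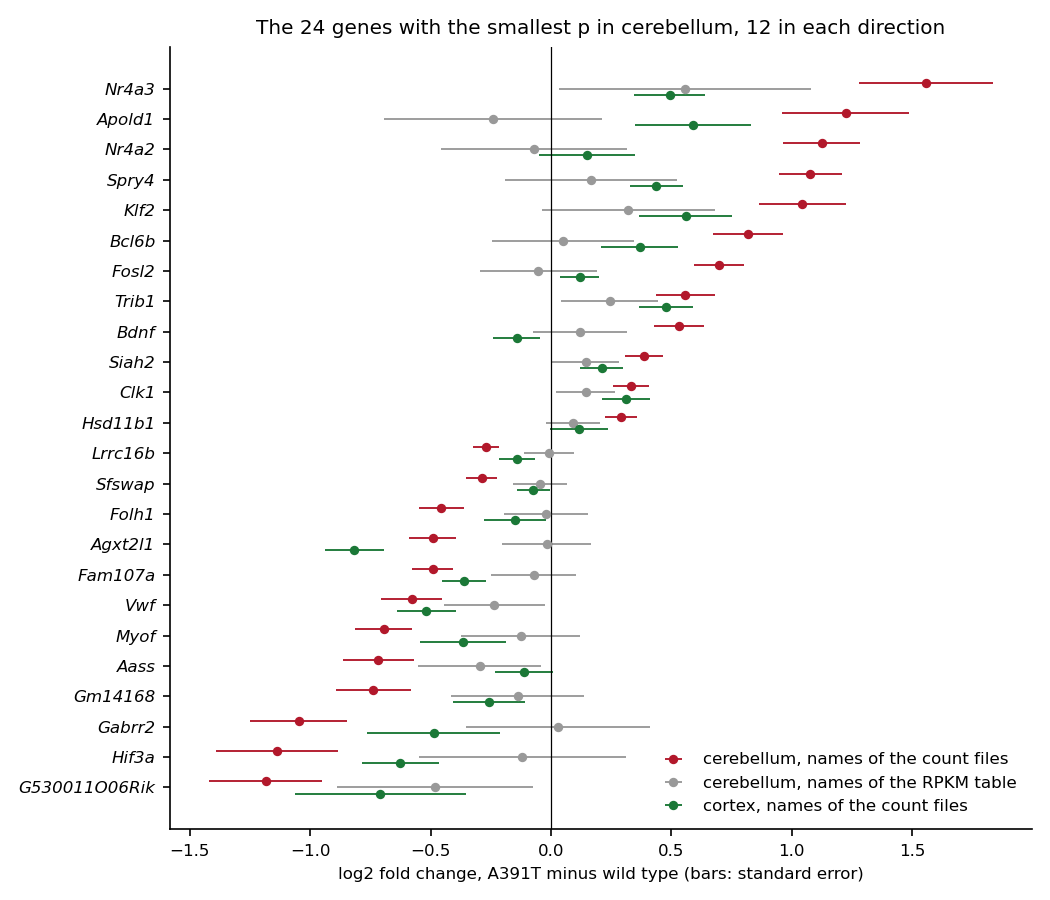
Log2 fold change of A391T against wild type (horizontal axis, bars of 1 standard error) of the 24 genes with the smallest p in cerebellum, with a red point for cerebellum under the names of the count files, a grey point for cerebellum under the names of the normalised table and a green point for cortex. Under the names of the table the cerebellar points gather near 0, with medians of 0.132 and -0.0947 for the higher and lower genes. The cortical points, under the names of the count files, mostly lie on the side of the red ones.

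The gene lists and their members were chosen with earlier results of these data known. Their counts beside the shares of all genes are therefore descriptions and no independent support. The immediate early genes are transcription factors and regulators that neurons and other cells switch on after stimulation, and 14 of the 16 listed were tested. None passed after adjustment. Of the 14, 6 had an unadjusted p under 0.05 and were higher in A391T, none was lower with such a p, and the median log2 fold change was 0.388, where that of all genes was 0.00597. Over all genes 4.9% were higher and 3.66% lower with such a p. Beside Nr4a3 and Fosl2 these were Nr4a1, Fosb, Fos and Btg2, named after their values were seen. Nr4a1 was at 51.5, 44.2, 62.6 and 85.1 CPM in A391T against 27.8, 35.5, 25.6 and 43.6 CPM in wild type, a log2 fold change of 0.88 (SE 0.22, adjusted p = 0.532). Fos, the AP-1 subunit, was at 44.0, 38.7, 76.0 and 104 CPM against 14.8, 32.9, 21.6 and 56.7 CPM (1.06, SE 0.43). CBLM461 and CBLM462 were the highest of all 8 for both genes and CBLM480 the highest of its group.

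Dusp1, a phosphatase that dampens MAP kinase signalling and the most abundant of the list per length (93.4 ± 43.7 TPM against 71.5 ± 25 TPM, SD, n = 4 each), was at 60.6, 62.1, 112 and 148 CPM in A391T and at 48.1, 79.3, 56.0 and 102 CPM in wild type. Its groups overlapped and its log2 fold change was 0.42 (unadjusted p = 0.218), and from 0.14 to 0.65 with each library left out. Egr1, Arc and Npas4 were named after their values were seen. Egr1 and Arc, which follow synaptic activity in neurons, were at -0.27 and -0.23 (unadjusted p = 0.311 and 0.219), and at -0.084 and -0.11 without CBLM445. Npas4, which is specific to neuronal activity, was at 5.5, 3.68, 14.0 and 17.7 CPM against 5.09, 7.21, 6.73 and 10.9 CPM. Thus CBLM461 and CBLM462 were the highest for Dusp1 and Npas4 as well, and CBLM445 and CBLM446 were below the highest wild-type library for both genes.

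Under the names of the table, in which CBLM461 and CBLM462 are wild type, the direction of this list turned. There 7 of the 14 were lower with an unadjusted p under 0.05 and none higher, against 5% and 2.82% of all genes, and the median was -0.442. In cortex the median was 0.428 with 7 of 14 higher under the names of the count files, where 395 of 15815 genes were, and -0.39 with 8 lower under those of the table, where 497 of 15815 were. No direction for immediate early genes can be given without the names.

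Of the genes that glucocorticoid hormones induce, 12 of the 13 listed were tested, and 8 of the 12 had a log2 fold change below 0. Earlier results of these data were known when this list was chosen too. Of the 12, 5 were lower and 1 higher with an unadjusted p under 0.05, against 3.66% and 4.9% of all genes. The median log2 fold change was -0.234, and none passed after adjustment. The lower ones were Hif3a and Plin4 as described and Zbtb16, Map3k6 and Sult1a1, named after their values were seen. Zbtb16, a zinc-finger transcription factor, was at 4.35, 4.97, 6.58 and 8.14 CPM in A391T against 15.2, 20.1, 9.14 and 6.69 CPM in wild type. CBLM447 and CBLM448 were the highest, and the groups overlapped at CBLM480. Map3k6, a stress-activated kinase, had a log2 fold change of -0.68 (SE 0.18) and Sult1a1, a sulphotransferase of phenols, of -0.46 (SE 0.17). Ddit4, an inhibitor of mTOR and the list's most abundant member per length, was the higher one at 0.18 (SE 0.07, adjusted p = 0.532). With the names of the table, 2 were higher and 1 lower, against 2.82% and 5% of all genes, and the median was 0.0771. In cortex 6 of 12 were lower and 2 higher, where 353 and 395 of 15815 genes were, with a median of -0.31. Under the names of the table the cortex had 2 lower and none higher, where 497 and 250 of 15815 genes were, with a median of 0.00649.

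Of the 18 cholesterol synthesis genes tested, 14 had a log2 fold change above 0, mostly a small one. Of the 18, 8 were higher with an unadjusted p under 0.05 and none lower, against 4.9% and 3.66% of all genes, with a median of 0.157. None passed after adjustment. Cyp51, which removes a methyl group from lanosterol, was at 99.9, 62.7, 69.1 and 66.6 CPM in A391T and at 59.9, 50.6, 48.5 and 48.5 CPM in wild type (log2 fold change 0.52, SE 0.15, and 0.35 without CBLM445). CBLM445 was far above the rest of its group, and the other 3 still lay above all wild-type values. Fdft1, the enzyme of the squalene step, was at 0.28 (SE 0.08) and Srebf2, the transcription factor that drives the pathway and its most abundant member per length, at 0.14 (SE 0.06). Fdft1 shares 26.9% of its exon bases with another gene. Without CBLM445, 7 were higher, where 976 of 15849 genes were, with a median of 0.122. In cortex 7 of 18 were higher, where 395 of 15815 genes were, with a median of 0.139. Under the names of the table none had an unadjusted p under 0.05 in cerebellum (median 0.00603) or in cortex (median 0.0511).

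Among glia, the oligodendrocyte and myelin list had 6 of 14 members higher with an unadjusted p under 0.05 and none lower, against 4.9% and 3.66% of all genes, with a median of 0.215. Opalin, a membrane protein of mature oligodendrocytes, was at 13.4, 12.4, 16.3 and 13.8 CPM in A391T and at 12.0, 8.98, 6.93 and 8.63 CPM in wild type (log2 fold change 0.62, SE 0.16, adjusted p = 0.532). Aspa, which cleaves N-acetylaspartate, was at 0.49 (SE 0.17), and its groups overlapped. Mbp, the most abundant of the list per length, was at 0.17 (SE 0.15), and from 0.064 to 0.29 with each library left out. The list's summed CPM ran from 5594 to 7626 in A391T and from 4865 to 7058 in wild type, so the groups overlapped. Without CBLM445 the count was 2, where 976 of all 15849 genes tested were higher, with a median of 0.180. With the names of the table, 1 was lower and none higher, with a median of 0.0638. In cortex 1 was higher and 1 lower, where 395 and 353 of 15815 genes were, with a median of 0.03. Under the names of the table the cortex had none higher and 1 lower (median -0.0759).

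The astrocyte and Bergmann glia list had 3 of 11 higher and 1 lower, against 4.9% and 3.66% of all genes, with a median of 0.151. Without CBLM445 it had 4 higher and 2 lower, where 976 and 894 of 15849 genes were, with a median of 0.062. With the names of the table, it had none higher and 1 lower with a median of 0.0494. In cortex it had none higher or lower (median 0.00695), and none higher and 3 lower under the names of the table (median -0.111). Fabp7, the fatty-acid-binding protein of Bergmann glia, was at 81.6, 50.3, 54.2 and 55.0 CPM in A391T and at 43.1, 41.9, 31.3 and 30.3 CPM in wild type, a log2 fold change of 0.72 (SE 0.18, adjusted p = 0.532). S100b, the calcium-binding protein of astrocytes, was at 0.35 (SE 0.12, and 0.22 without CBLM445), and in both genes CBLM445 was the highest library of all. Their log2 fold changes were 0.35 and 0.23 under the names of the table. Microglial genes had none of 12 with an unadjusted p under 0.05, with a median of 0.0783, and Trem2, a receptor of microglia, was at 0.33 (SE 0.19), and at 0.094 without CBLM445, where its level of 9.82 CPM was the highest of all.

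Neuronal markers were counted at an unadjusted p under 0.05 too, at which 4.9% of all genes were higher and 3.66% lower. Granule cell genes had 1 of 13 lower and none higher, with a median of -0.0306, and the lower one was Cbln1, a secreted organiser of parallel-fibre synapses (-0.28, SE 0.12). Cbln3, the granule cell marker with the highest level per length, had a log2 fold change of -0.00 (SE 0.09). None of the 13 Purkinje cell genes had an unadjusted p under 0.05, and their median was 0.0834. Of the 11 markers of interneurons and unipolar brush cells 1 was higher, the calcium-binding protein Calb2 (0.30, SE 0.11, and 0.18 without CBLM445), and 1 lower, the glutamate receptor Grm2 (-0.23, SE 0.10, and -0.17 with an unadjusted p of 0.0522 without CBLM445). Without CBLM445 this list had 2 higher and none lower, where 976 and 894 of 15849 genes were, and its median turned from -0.0146 to 0.0249. Pvalb, the calcium-binding protein of interneurons and Purkinje cells, was at 2125 CPM in CBLM445 and from 650.1 to 815 CPM in the other 7 libraries, so that its log2 fold change of 0.65 (SE 0.31) rested on 1 library and was 0.14 without it. Ionotropic glutamate and GABA-A receptors had 2 of 28 higher and 1 lower, with a median of -0.0914. Without CBLM445 these receptors had 2 higher and 2 lower, where 976 and 894 of 15849 genes were, with a median of -0.0517. Gabra6, the granule cell subunit and the most abundant of these receptors per length, was at -0.09 (SE 0.07, and -0.048 without CBLM445). With the names of the table, 2 Purkinje cell genes and no other of these markers were higher, and 1 granule cell gene, 1 marker of interneurons and 3 receptors were lower, against 2.82% and 5% of all genes.

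Metal importers of the ZIP family, of which Slc39a8 is one, had 1 of 14 members higher and none lower, with a median of -0.0468. Without CBLM445 none was higher and 1 lower, where 976 and 894 of 15849 genes were, with a median of -0.0214, and with the names of the table, 2 were higher and none lower, against 2.82% and 5% of all genes, with a median of 0.00623. The higher one, where 4.9% of all genes were higher, was Slc39a11 at 0.34 (SE 0.15, and 0.15 without CBLM445), which was at 20.1 CPM in CBLM445 and from 10.8 to 13.6 CPM in the other 7. Slc39a12, the astrocytic importer with the highest level per length, was at 64.8 ± 14.3 TPM in A391T and 72.7 ± 1.75 TPM in wild type (SD, n = 4 each) and had a log2 fold change of -0.12, which rested on CBLM445 and was -0.0021 without it. Its level was 40.0 CPM in CBLM445 and from 56.95 to 61.8 CPM in the other 7. The zinc exporters and metallothioneins had 1 of 12 higher and 2 lower, with a median of 0.0242. Mtf1, the zinc sensor that drives metallothionein transcription, was at 53.6, 49.3, 46.7 and 49.8 CPM in A391T against 45.7, 43.3, 42.8 and 42.6 CPM in wild type (0.19, SE 0.06). Mt1, a metallothionein and so a binder of zinc, was at 188, 267, 269 and 278 CPM against 293, 336, 296 and 329 CPM, a log2 fold change of -0.32 (SE 0.12, adjusted p = 0.532), which was -0.21 without CBLM445. All A391T values of Mt1 were below all wild-type values, and CBLM445 was far below the rest. The log2 fold changes of Mtf1 and Mt1 were 0.08 and -0.11 under the names of the table.

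Genes of manganese and iron handling had 3 of 16 higher and 2 lower, against 4.9% and 3.66% of all genes, with a median of 0.0121. With the names of the table, none was higher and 1 lower. Slc40a1, the ferroportin that exports iron and manganese, was at 11.6, 9.86, 8.74 and 8.66 CPM in A391T against 7.39, 7.70, 6.85 and 7.97 CPM in wild type (0.38, SE 0.12). Aco1, the iron-responsive RNA-binding protein, had a log2 fold change of 0.15 (SE 0.06), which was -0.04 under the names of the table. Fth1, the ferritin heavy chain and the most abundant of the list per length, was at -0.02 (SE 0.10). None of these genes passed after adjustment.

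Over all genes 8.55% had an unadjusted p under 0.05 in either direction. None of the 28 genes of N-glycan assembly and trimming in the ER, none of the 20 of Golgi N-glycan processing and none of the 15 of O-mannosylation had an unadjusted p under 0.05, with medians of 0.012, -0.00733 and 0.00593. Of the 19 sialyltransferases 1 did, St6galnac2 at -0.45 (SE 0.16). Mgat3, which adds the bisecting N-acetylglucosamine that is abundant on brain N-glycans, was at 266, 306, 266 and 305 CPM in A391T and at 282, 292, 291 and 287 CPM in wild type. Its log2 fold change was -0.01 (SE 0.07), and the wild-type values lay within the range of the A391T values. The study's own list of glycosyltransferases, glycoside hydrolases, sulphotransferases and related genes, from which it left out genes not detected in its samples, had 4 of 262 higher and 5 lower, with a median of -0.00176, and 9 and 13 without CBLM445, where 976 and 894 of 15849 genes were. Ndst2 and Ndst3, enzymes that sulphate heparan sulphate, were the sulphotransferases on the lower side, at -0.27 (SE 0.10) and -0.33 (SE 0.13). Ndst3 was at 78.8 CPM in CBLM445 and from 113 to 144 CPM elsewhere, and its log2 fold change without CBLM445 was -0.21. Of the 262, 10 were higher and 20 lower when the names of the table were used, against 2.82% and 5% of all genes, with a median of -0.00348.

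**Figure D3:**
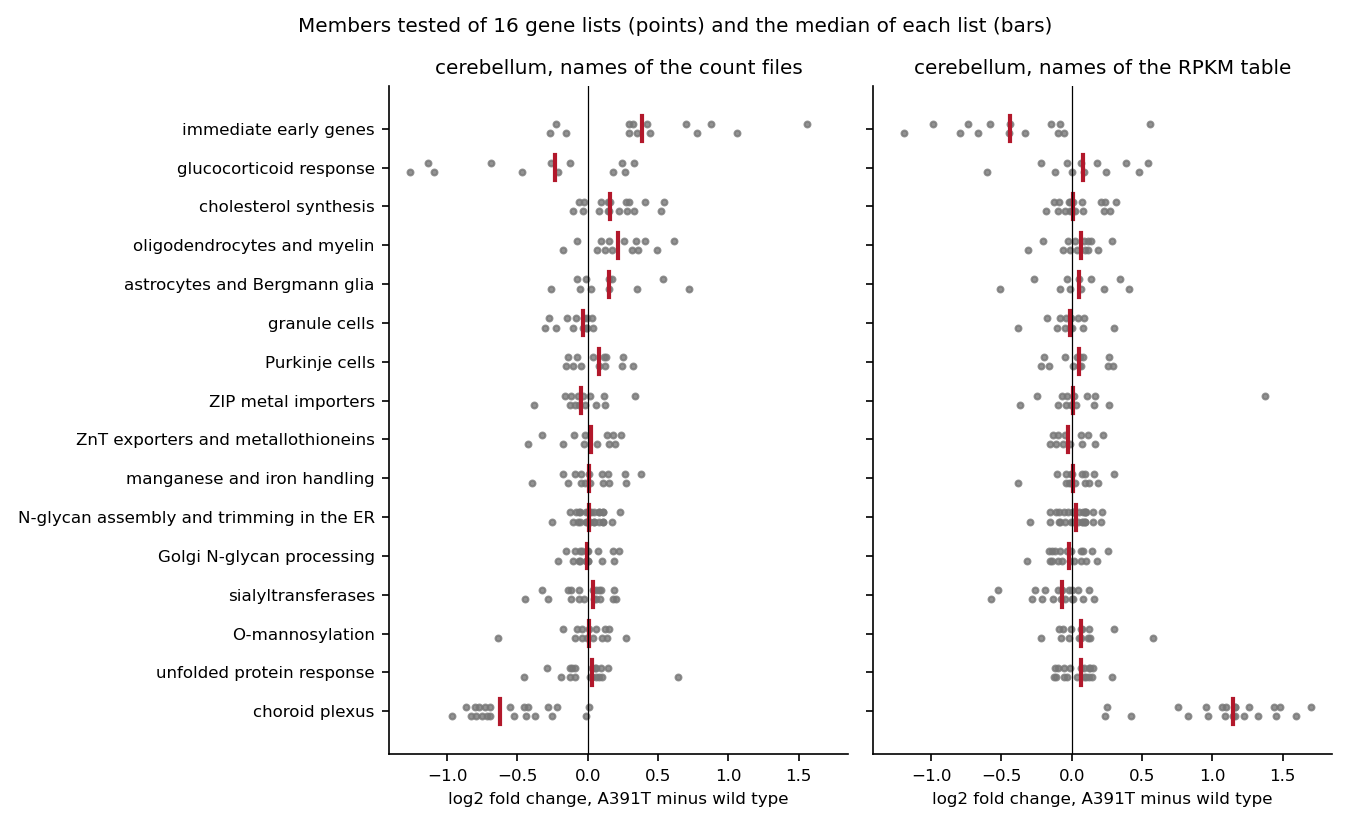
Log2 fold change of A391T against wild type in cerebellum (horizontal axis) for the tested members of 16 gene lists, with 1 grey point per gene and a red bar at the median of each list, under the names of the count files on the left and of the normalised table on the right. The median of the immediate early genes is 0.388 on the left and -0.442 on the right, and those of the glycosylation lists lie near 0 on both sides.

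The unfolded protein response, which the ER mounts when proteins misfold, had 1 of 19 genes higher and 2 lower, against 4.9% and 3.66% of all genes, with a median of 0.031. Without CBLM445 the median turned to -0.0775, with 1 higher and 6 lower, where 976 and 894 of 15849 genes were. Atf3, a stress-induced transcription factor, was higher at 0.64 (SE 0.17), and Calr, a calcium-binding chaperone of glycoproteins, lower at -0.19 (SE 0.07). In cortex 8 of 19 were lower and none higher, where 353 and 395 of 15815 genes were, with a median of -0.151. With the names of the table, none was higher or lower in cerebellum (median 0.0691). The cortex then had 3 lower and none higher, where 497 and 250 of 15815 genes were, with a median of -0.0838. The genes of the circadian clock had 2 of 16 higher, Nfil3 at 0.29 and Bhlhe41 at 0.24 (0.15 without CBLM445), both repressors of transcription. Antioxidant genes had 2 of 11 higher, the cystine transporter Slc7a11 at 0.26 and the thioredoxin reductase Txnrd1 at 0.15. None of the 12 interferon-response genes and none of the 7 antigen-presentation genes had an unadjusted p under 0.05.

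CBLM445 also held the highest sums of 2 groups of short and abundant transcripts. Of 75 ribosomal protein genes 4 were higher and 1 lower, with a median of 0.123, and of 76 genes of the respiratory chain and ATP synthase 8 were higher and none lower, with a median of 0.191, against 4.9% of all genes higher and 3.66% lower. The summed CPM of the respiratory genes was 17162 in CBLM445, from 12298 in the lowest A391T library, and from 11131 to 12409 in wild type. Without CBLM445 the medians were 0.0557 and 0.0979, and 7 ribosomal and 20 respiratory genes were then higher with an unadjusted p under 0.05, where 976 of 15849 genes were. Ndufs6, a subunit of complex I, was at 52.3, 49.5, 51.3 and 46.0 CPM in A391T and at 44.5, 45.2, 41.5 and 42.4 CPM in wild type (0.20, SE 0.07). The highest members per length, Rpl8 and Cox8a, were at 0.11 (SE 0.07, and 0.071 without CBLM445) and 0.00 (SE 0.08). In cortex the medians of the 2 lists were -0.0252 and -0.0642.

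Choroid plexus RNA varied between the cerebellum libraries far more than any list of cerebellar cells. Ttr, the transthyretin that choroid plexus epithelium makes in large amounts, was at 839, 1873, 1052 and 9.36 CPM in A391T and at 2271, 2627, 8.51 and 1654 CPM in wild type. Within each genotype 1 library was thus nearly free of it. The exact permutation test over libraries, two-sided, gave p = 0.543 for Ttr, with a mean difference of -0.61 in log2 CPM. Under the names of the table, which put CBLM462 and CBLM479 in 1 group, the difference was 4.01 (exact permutation p = 0.114).

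The summed CPM of the 22 choroid plexus genes was 1862, 3123, 1951 and 330.6 in A391T and 3698, 4357, 297.5 and 2838 in wild type, and no member was at 0 in all libraries. Of the 22 log2 fold changes 21 were below 0, none with an unadjusted p under 0.05, and the median was -0.62. The median was 1.15 under the names of the table, and 5 of 22 were higher with such a p, against 2.82% of all genes. The 7 ependymal genes, of the cells that line the ventricle, had none with an unadjusted p under 0.05. A fit with the level of the choroid plexus genes as a covariate also called no gene, and all 24 genes with the smallest p kept the sign of their log2 fold change in it, with Spry4 at 1.11, Nr4a3 at 1.68 and Hif3a at -1.23.

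Meningeal fibroblasts, which cover the surface of the brain, had 4 of 10 genes higher and none lower, against 4.9% and 3.66% of all genes, with a median of 0.278. With the names of the table, 1 was higher and 1 lower, with a median of -0.006. In cortex none was higher or lower (median -0.0141), and none was higher and 4 were lower under the names of the table (median -0.242). Slc6a20a, an amino-acid transporter of the meninges, was at 18.5, 17.5, 19.6 and 17.9 CPM in A391T and at 14.9, 15.7, 15.4 and 13.4 CPM in wild type, a log2 fold change of 0.31 (SE 0.08, adjusted p = 0.532). Slc6a20a shares 16% of its exon bases with Gm17120, Gm17200 and Ccr9 on the other strand. Dcn, the proteoglycan decorin, was at 0.17 (SE 0.07). The list's summed CPM was 250.8 in CBLM445, from 156.9 to 173.8 in the other A391T libraries and from 142.7 to 167.5 in wild type, and no value was near 0. Endothelial genes had 1 of 12 higher and none lower (median 0.0149), mural cells of vessels none of 8 and blood cell genes 1 of 5 higher. Without CBLM445 the endothelial list had none higher and 1 lower (median -0.0308), and with the names of the table, none higher and 3 lower (median -0.131). Under those names 2 of 8 mural genes and 1 of 5 blood genes were lower and none higher, with medians of -0.109 and -0.288. Of all genes 5% were lower there. The blood gene that was higher was Hbb-b1, the beta globin, at 102 CPM in CBLM445 and from 54.4 to 71.0 CPM in the other 7. The log2 fold change of Hbb-b1 was 0.36, and 0.17 without CBLM445 and 0.058 under the names of the table. Its copy Hbb-b2 is nearly identical in sequence, so reads of the pair are uncertain.

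**Figure D4:**
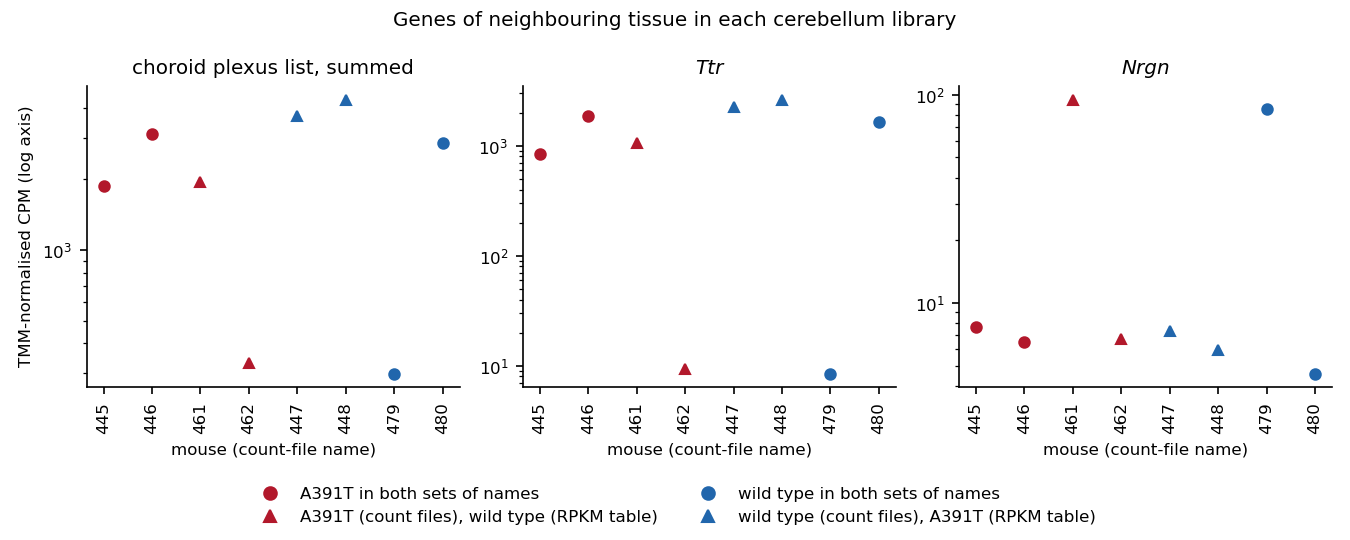
Summed CPM of the choroid plexus list and CPM of Ttr and of Nrgn, on log axes, in each of the 8 cerebellum libraries, coloured and shaped as in the plot of levels by library. The choroid plexus sum reaches from 297.5 CPM in CBLM479 to 4357 CPM in CBLM448, with CBLM462 at 330.6 CPM, and Nrgn is high in CBLM461 and CBLM479.

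Around Slc39a8, 38 genes within 5 Mb were tested. Of these, 3 were higher and 2 lower with an unadjusted p under 0.05, against 4.9% and 3.66% of all genes, with a median of 0.0924, and none passed after adjustment. With the names of the table, 2 were higher and 1 lower, with a median of 0.0147. Ube2d3, a ubiquitin-conjugating enzyme, was at 97.4, 99.5, 102 and 96.5 CPM in A391T and at 92.1, 91.0, 87.9 and 86.5 CPM in wild type, a log2 fold change of 0.14 (SE 0.05). 4930539J05Rik was on the lower side at -0.56 (SE 0.19). Within 20 Mb 10 of 164 were higher and 7 lower, with a median of 0.0202, near the shares over all genes. Agxt2l1 and Tmem56 had the smallest p there, the latter at 162, 130.0, 127 and 126 CPM in the A391T libraries against 116, 111, 110.2 and 100.5 CPM (0.32, SE 0.09). In cortex Tmem56 was at -0.03, with an interaction p of 0.00975 before adjustment.

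Some genes of low level had wide differences that 1 or a few libraries carried. Lrg1, an acute-phase glycoprotein named after its values were seen, was at 2.16, 1.09, 0.679 and 1.70 CPM in A391T and at 1.60, 4.47, 7.99 and 8.96 CPM in wild type. Its log2 fold change was -2.02 (SE 0.52, adjusted p = 0.532 by the quasi-likelihood test and 0.0205 by DESeq2). The groups overlapped at CBLM447. It was -1.06 under the names of the table and -1.23 in cortex (unadjusted p = 0.00174).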

How the data were processed

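RNA of the cerebellum of 4 A391T and 4 wild-type mice was measured with 50-base reads on polyA-selected directional libraries. The authors used STAR with mm9 for mapping and HTSeq, without regard to strand, for counting on Ensembl genes, and the deposited count files hold whole numbers with no normalization. The authors also deposited a table of RPKM values with gene lengths in bases, used to read its library names and to set levels per length (TPM). Columns and count files were matched by proportional values, and 8 of 16 columns had another name. Reads on no feature, from 10.21% to 13.17% per library, stayed out of totals and tests, and intervals and errors rest on 23189700 to 27678440 counts per library.

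Counts were filtered with filterByExpr, scaled by TMM and tested with edgeR 4.0.16 (quasi-likelihood F test, R 4.3.3) between the 8 libraries, with p-values adjusted by Benjamini-Hochberg over the genes that passed the filter and a threshold of 0.05. The study's own criterion adds a 2-fold change. Scripts were tested on simulated data. The alternatives were edgeR's exact test, DESeq2 1.42.0, other scalings and filters, all 16 libraries in 1 model, a choroid plexus covariate, the names of the table, only the mice with 1 genotype in both sets of names, and each library left out. Added after the data were seen were the table's names with the covariate, without CBLM445 and with the mouse block, and the fit without CBLM461 and CBLM479. Ttr was tested by exact permutation over log2 CPM with a pseudocount of 0.5. Genes named were Slc39a8, the 12 with the smallest p in each direction, and of each list the 2 with the smallest p and the most abundant per length, and others are said to have been chosen after their values were seen. The lists and members were chosen with earlier results of these data known. Labels give no litter or culture beyond the mouse, so p-values measure the spread between these mice.

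Cortex and cerebellum of a mouse share its number and so its animal. The correlation of deviations from the group means between the 2 regions of a mouse was from -0.17 to 0.19 (median -0.086, 8 mice). Between different mice of a genotype it was from -0.25 to 0.23 (median 0.034). The regions of a mouse were thus no more alike than those of different mice, and the pairing rests on the labels. The genotypes share no mouse, so no block applies within cerebellum. Promoters came from RefSeq for GRCm38.p6 and the codon from the mm9 genome and annotation. Mitochondrially encoded genes were not analysed here. A few listed genes are not reported here by name.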

Additional observations from a re-analysis of the deposited data

Results flagged for a closer look

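In each group of 4 libraries the highest or lowest value was examined for a gap to its neighbour that was past Dixon's critical value for the share of the group's range, which chance exceeds in about 1 group in 20. Of 312 groups of values 25 passed, and 19 of them were due to CBLM445. That library was the lowest of its group in the share of reads on no feature, at 10.21%, and the highest in ambiguous reads, at 2.745%. It was the highest for Klf2 (28.3 CPM), Fabp7 (81.6 CPM), Tmem56 (162 CPM), S100b (858 CPM), Calb2 (828 CPM), Slc39a11 (20.1 CPM), Trem2 (9.82 CPM), B3gnt1 (186 CPM), Tph2 (1.15 CPM) and Entpd4 (58.5 CPM), and the lowest for Mt1 (188 CPM) and Cyfip2 (512 CPM). Its summed CPM was also the highest for interneurons and unipolar brush cells (4675), O-mannosylation (840.3), antioxidant genes (816) and the respiratory chain (17162), and the lowest for the genes that differ between C57BL/6 substrains (663). The other 6 were G530011O06Rik in CBLM461 (7.26 CPM), Slc6a13 in CBLM479 (17.6 CPM), Hbb-b2 in CBLM480 (13.6 CPM), the lowest ependymal sum in CBLM479 (19.7 CPM), and the highest endothelial (559 CPM) and ZIP importer (536 CPM) sums in CBLM448. Why these libraries stood apart was not tested.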

How the results depend on the processing

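The count of genes called in cerebellum, 0 in the main test, was 17 with edgeR's exact test, 30 with DESeq2, 1 with every gene with a count (Spry4) and 3 with all 16 libraries in 1 model (Spry4, Nr4a3 and Fosl2), and leaving out each library gave 0 to 1, which was Spry4 without CBLM462 and Nr4a2 without CBLM480. It was 0 under the other alternatives, among them the names of the table. The count in cortex, 2 in the main test, was 13 with the exact test, 14 with DESeq2, 0 under the names of the table, 1 with only the mice of 1 genotype in both sets of names, and 0 to 4 with each library left out: 0 without CTX445, CTX446, CTX461, CTX462 or CTX448, and 4 without CTX480. The interaction had 0 calls under each alternative, with and without the mouse as a replicate block. The log2 fold change of Slc39a8 turned to 0.27 under the names of the table and 0.24 with only the mice of 1 genotype, and was -0.12 to 0.047 with each library left out (0.016 without CBLM462 and 0.047 without CBLM447). The difference in Ttr was 4.01 under the names of the table. There the log2 fold change also changed sign for Nr4a2 (-0.070), Fosl2 (-0.052), Gabrr2 (0.030), Apold1 (-0.24), Rpl24 (-0.0027), Nr4a1 (-0.45), Map3k6 (0.18), Atf3 (-0.12), Zbtb16 (0.54), Slc6a13 (-0.019), Aco1 (-0.043), Fosb (-0.79), Fos (-0.98), Grin2d (0.058), H2-Eb1 (-0.064), Sulf1 (0.054), Gyltl1b (0.58), Tekt1 (0.41), Rgs5 (-0.058), Junb (-0.58), Kcnj13 (0.97), Slc4a5 (1.16), Npas4 (-1.19), Calca (0.51), Dusp1 (-0.74), Map3k15 (1.42), Slc15a2 (1.66), Alox5 (-1.28), Nrgn (-2.81), Lhx9 (-2.89), Dcn (-0.023) and Mbp (-0.029). With only the mice of 1 genotype in both sets it did for Fosb (-0.015), Tekt1 (0.041), Junb (-0.30), Kcnj13 (0.13), Slc4a5 (0.41), Npas4 (-0.93) and Calca (0.11), and none of the 24 genes with the smallest p was among them. Leaving out 1 library turned Entpd4 without CBLM445 (-0.058, and up to 0.21 without another library), Calca without CBLM447 (0.10) and Tbr1 without CBLM448 (-0.0091). The values with each library left out also lay on both sides of 0 for Th (-0.016 to 0.49), Slc15a2 (-0.64 to 0.080), Alox5 (-0.28 to 0.40), Kcnj2 (-0.37 to 0.23), Nrgn (-1.91 to 2.27), Lhx9 (-1.88 to 2.07), Mgat3 (-0.044 to 0.017), Fth1 (-0.095 to 0.050), Cbln3 (-0.060 to 0.063) and Cox8a (-0.045 to 0.039), none of which had an unadjusted p under 0.05. The cause of these changes was not tested. With 4 mice per group and a median standard error of 0.12, small differences of single genes were not detectable, and the fit without CBLM445 had a median standard error of 0.0781 and 1870 genes with an unadjusted p under 0.05 but also no call.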

Other observations

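Of the 12 brainstem neuron markers 6 were tested, and none had an unadjusted p under 0.05. Th, which makes the precursor of dopamine and noradrenaline, was at 15.9, 18.9, 12.9 and 14.7 CPM in A391T and at 22.4, 13.7, 8.75 and 10.9 CPM in wild type. Replication-dependent histone genes had 13 of 71 members tested, and none had an unadjusted p under 0.05. Lcn2, an acute-phase protein that binds bacterial siderophores and was named after its values were seen, did not pass the filter on low counts. It was at 0.0372, 0.162, 0.0424 and 0.305 CPM in the A391T libraries and at 0.288, 3.83, 19.99 and 29.8 CPM in the wild-type libraries, so that 3 of the 4 wild-type mice carried it and no test was made.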
